A study of Mus musculus with 16 samples.

Results

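The response of CD8 T cells without GABPα to 18 h of stimulation was measured as the difference between 2 arrays of stimulated cells (KO 18 h) and 2 arrays of unstimulated cells (KO 0 h), out of 16 arrays in the series. Naive T cells (CD25-, CD62Lhi, CD44lo) were sorted from spleen and lymph nodes of mice on the C57BL/6 background. KO mice carried floxed Gabpa alleles and a CD4-Cre transgene (CD4Cre Gabpa f/f), and WT mice carried the floxed alleles without Cre (Gabpa f/f). Sorted cells were divided, and RNA was taken directly (0 h) or after 18 h of culture with IL-2 and antibodies to CD3 and CD28. The CD4-Cre transgene acts from the CD4+CD8+ stage of thymocyte development, so the transgene targets Gabpa in late thymocytes, before mature CD8 cells form. The age of the mice used for the arrays and the number of mice behind an array were not given. All 12393 genes with a probe set of their own were followed, each through its brightest probe set (by the mean of all 16 arrays). Values are deposited log2 expression values. Pairs of values are given as replicate 1 and replicate 2, and differences are 18 h minus 0 h on the log2 scale with their standard error (SE, n = 2 arrays per group).

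A naive CD8 T cell is small and quiescent. Signals through the T cell receptor, CD28 and the IL-2 receptor switch on early transcription factors such as Irf4 and Myc, then cytokines, chemokines and surface receptors, and later the machinery for growth and division, while genes of the naive state are turned down. GABP is a transcription factor of the Ets family made of GABPα, which binds DNA, and GABPβ, which activates transcription, and many of its known targets serve basic functions of the cell such as those of mitochondria and ribosomes.

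The RNA of the 4 arrays was not of equal quality. In KO 18 h replicate 2 the actin and Gapdh controls read 3.38 and 4.15 higher at the 3' end than at the 5' end, with a mean of 3.76, against 0.56 in KO 18 h replicate 1. The means were 0.80 and 1.11 in the KO 0 h arrays and 0.46 to 1.58 in the other 12 arrays. Replicates were correlated over all genes at 0.97 for KO 18 h and 0.9896 for KO 0 h, against 0.9872 to 0.9942 in the other 6 groups. The median gap between replicates was 0.35 at 18 h and 0.20 at 0 h. Actb, a transcript of every cell, was at 13.92 and 10.60 at 18 h, against 14.02 and 12.86 at 0 h. Most counts of the KO response are given with and without KO 18 h replicate 2. Those without it count every list member called in that fit, including some not called in the full fit. The part of RNA quality in a single result was not tested.

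Gabpa itself was at 9.50 and 9.09 at 18 h, against 9.18 and 9.45 at 0 h, and its partner Gabpb1 was at 8.06 and 8.09, against 8.01 and 8.06. Neither passed the test, with differences of -0.02 and 0.04. A dimmer Gabpa probe set was at 8.31 and 8.20, against 7.62 and 7.76 (0.56). In WT CD8 cells the brighter Gabpa probe set was at 9.24 and 8.74 at 18 h, against 9.05 and 9.34 at 0 h, and the dimmer one at 6.87 and 7.27, against 6.54 and 6.95, so that mean Gabpa signal was not lower in KO than in WT cells at either time. Gabpb1 was higher in KO than in WT cells, where it was at 6.42 and 6.87 at 18 h, against 6.14 and 6.67 at 0 h (1.63 in KO minus WT at 0 h, adjusted p = 0.00302). The sources used here do not say whether these probe sets fall in the deleted region. Their signal thus checks nothing about the deletion, and loss of Gabpa RNA is not shown by these arrays. By immunoblot the study found GABPα protein barely detectable in CD4 and CD8 T cells of KO mice. Of the defining markers of the labelled cell type, Cd8a was at 11.04 and 10.89 at 18 h, against 11.63 and 12.01 at 0 h, and Cd3e at 9.13 and 9.34, against 9.80 and 9.59. Cd4 stayed between 4.78 and 5.43 in the same arrays. Of 55 markers of CD4, B, myeloid, NK, erythroid and early thymocyte lineages in 6 lists, 0 were called higher and 3 lower (Gata3 -1.79, Dntt -2.02, Ighm -0.90). The calls of Gata3 and Dntt were lost without KO 18 h replicate 2, and the other probe sets of Ighm gave -0.99 to 0.34. Cd79a and Ms4a1, defining markers of B cells, lay at 4.4 or less in all 4 arrays, and the mean level of the B cell list was 4.27 and 4.64 at 18 h, against 4.67 and 4.76 at 0 h. Of 8 regulatory T cell markers 4 rose, of which Il2ra, Ctla4 and Tnfrsf18 are also receptors of activation and Capg is the fourth. In bulk RNA fewer cells of a type and less RNA per cell cannot be told apart.

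At 18 h 455 genes were called higher (3.67% of those tested) and 479 lower (3.87%), with limma, adjusted p under 0.05 and a change over 1.5-fold. Counts of gene lists stand beside these shares, and a count near them is not read as a property of its list. By size 268 and 257 changed over 2-fold, 85 and 45 over 4-fold, and 26 and 15 over 8-fold. The 18 h and 0 h arrays of every called gene did not overlap, which was also so for 2446 (19.7%) and 2384 (19.2%) of all genes. Without KO 18 h replicate 2, 247 genes were called higher (1.99%) and 366 lower (2.95%), and 219 and 277 of the first calls were among them. The counts also depended on the other 3 arrays: they were 1257 and 966 when KO 18 h replicate 1 was left out, 162 and 220 without the first KO 0 h array and 282 and 236 without the second. The treatment protocol says that sorted cells were halved between the times, but no label says that a replicate number marks 1 sort. With the replicate number as a block within lineage the counts were 791 and 744. In all 16 fits with 1 array left out, 148 and 147 of the calls were kept. The median difference of all genes was 0.015. Over genes, which are not independent replicates, the differences of the arrays numbered 1 and of those numbered 2 were correlated at 0.626, as shown in the plot by array number.

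**Figure D1:**
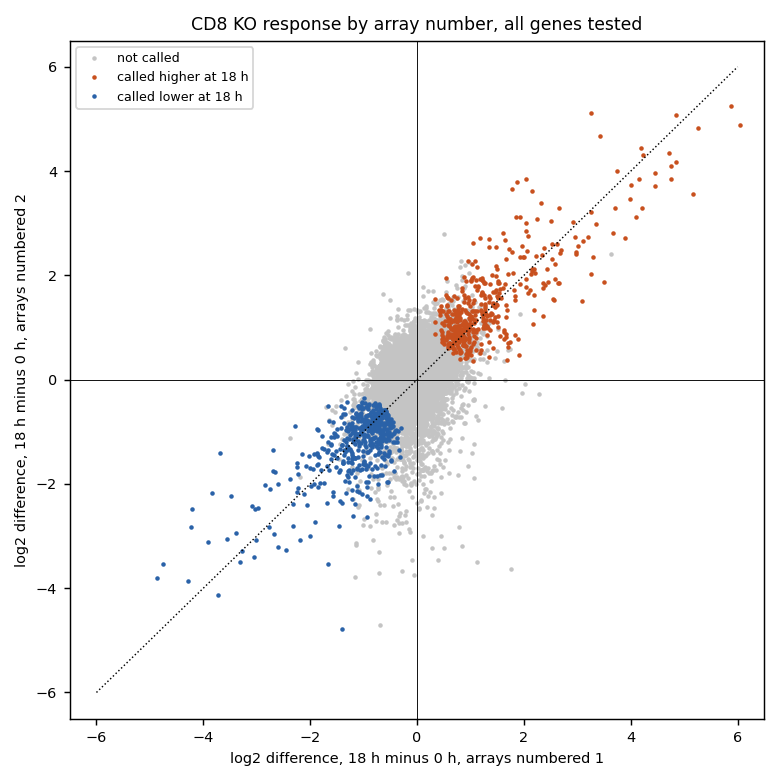
Log2 difference of 18 h minus 0 h in CD8 KO cells for the arrays numbered 1 (horizontal axis) and 2 (vertical axis), 1 point per gene tested; the dotted line marks equal differences. Called genes lie in the upper right (455 higher) and lower left (479 lower), and genes not called spread more along the vertical axis, with an SD of 0.53 against 0.36.

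Chemokines, a lectin and early regulators of activation led the increases. Ccl3, a chemokine that recruits effector cells, was at 9.16 and 9.37 at 18 h, against 3.28 and 4.13 at 0 h, a 47.1-fold increase (5.56 ± 0.66, adjusted p = 0.000296). Lgals3, which encodes the galactose-binding lectin galectin 3, was at 10.17 and 10.49, against 4.13 and 5.61 (44.1-fold; 5.46 ± 0.48). Irf4, a transcription factor whose level follows the strength of the T cell receptor signal, was at 9.89 and 10.37, against 4.63 and 5.55 (32.8-fold; 5.04 ± 0.32). In each case the lower 18 h array stood far above the higher 0 h array. A second Irf4 probe set gave 1.02, and of 75 called genes named by rule that had more than 1 probe set, 46 had another with a difference over 1.5 times smaller or of opposite sign. The 12 largest increases went on with Il2ra (4.96), Spin4 (4.54), Il2 (4.51), Plscr1 (4.43), Socs2 (4.37), Asns (4.32), Xcl1 (4.30), Ctla4 (4.27) and Rgs16 (4.21). Asns lost its call without KO 18 h replicate 2, and the other 11 kept theirs.

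The 12 largest decreases held a different set of functions. Oas2, an interferon-induced sensor of double-stranded RNA, was at 6.25 and 6.58 at 18 h, against 11.11 and 10.39 at 0 h, a 20.2-fold decrease (-4.34 ± 0.48, adjusted p = 0.000199). Dtx1, a target of Notch signalling, was at 6.19 and 6.57, against 10.47 and 10.45 (16.9-fold; -4.08 ± 0.34). Hsd11b1, an enzyme that regenerates active glucocorticoid, was at 6.75 and 6.71, against 10.06 and 10.20 (10.6-fold; -3.40 ± 0.22). The gap between the 0 h replicates was 0.72 for Oas2 and at most 0.14 for the other two, and the groups were far apart in each gene. Abca1, a cholesterol exporter, fell by 3.28, Sgk1, a kinase of the PI3K pathway, fell by 3.23 and Cd72, a surface receptor, fell by 3.17. The other 6 of the 12 were the interferon-response genes Mx1, Oasl2, Rsad2, Isg20, Ifit1 and Irf7. All 12 were also called without KO 18 h replicate 2.

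**Figure D2:**
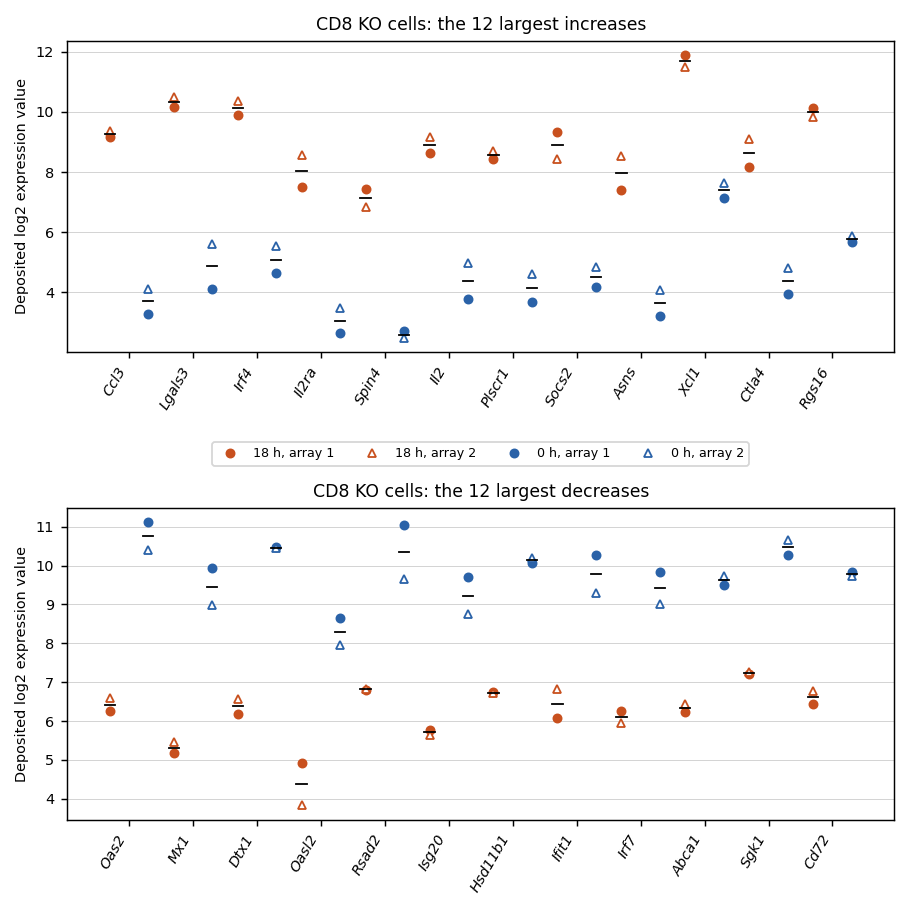
Deposited log2 expression values in the 4 CD8 KO arrays for the 12 largest increases (top) and the 12 largest decreases (bottom) among called genes, 18 h (orange) left of 0 h (blue), filled circles for replicate 1, open triangles for replicate 2 and a bar for the mean of 2 arrays. In all 24 genes the 18 h and 0 h arrays do not overlap, with differences from 5.56 for Ccl3 to -4.34 for Oas2.

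Among 19 measured cytotoxic effectors, cytokines and chemokines, 9 rose and 0 fell, with a median difference of 1.55 (8 and 0 without KO 18 h replicate 2). Il2, the growth factor of T cells, was at 8.62 and 9.15 at 18 h, against 3.77 and 4.99 at 0 h (4.51 ± 0.71). Xcl1, a chemokine for cross-presenting dendritic cells, was at 11.89 and 11.48, against 7.14 and 7.64 (4.30 ± 0.44). Ccl4 rose by 3.87 ± 0.28. Of the TNF family ligands, Tnfsf11 (RANKL) rose by 3.74 (0.91 with its other probe set), Fasl, which triggers death of target cells, by 2.49, Tnf by 1.56 and Lta by 1.48. Ifng, the main cytokine of CD8 effectors, was at 6.80 and 8.89, against 3.55 and 3.77 (4.19 ± 1.14, adjusted p = 0.0432). Its 18 h arrays were far apart, and the call was lost without replicate 2. Gzmb, the protease of cytotoxic granules, was at 10.53 and 9.95, against 6.90 and 7.54, and missed the threshold (3.02, adjusted p = 0.0546), which it passed with the replicate block. Prf1, the pore-forming protein, was at 6.40 and 4.59, against 6.87 and 6.10, so that its groups overlapped.

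Of 25 surface receptors of activation 11 rose and 1 fell, with a median of 0.71. Without KO 18 h replicate 2 Cd83 lost its call and Cd28 gained one. Il2ra, the α chain that completes the high-affinity IL-2 receptor, was at 7.49 and 8.56 at 18 h, against 2.64 and 3.48 at 0 h (4.96 ± 0.52). Members known for inhibition were divided. Those that rose were Ctla4 by 4.27 ± 0.42, Cd200, a ligand of an inhibitory receptor, by 4.0 ± 0.29, Lag3 by 2.78 ± 0.30 and Pdcd1, which encodes PD-1, by 2.71 ± 0.31, whereas Havcr2 (0.19), Cd160 (-0.07), Cd96 (-0.44) and the ligand Cd274 (0.37) were not called. Costimulatory receptors of the TNF receptor family rose by 2.40 (Tnfrsf9), 1.68 (Tnfrsf4) and 1.55 (Tnfrsf18), and Cd27, a receptor of the same family on naive cells, fell by 0.94. Cd44, the memory and activation marker used in the sort, was at 8.64 and 6.71, against 5.14 and 4.84 (2.68 ± 0.45). The array of lower RNA quality was the lower of the Cd44 pair. Icos was at 9.61 and 6.90, against 8.70 and 7.53, with overlapping groups.

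Among 29 early transcription factors of activation 12 rose and 1 fell, with a median of 0.42 (8 and 0 without KO 18 h replicate 2). Bhlhe40, which sustains cytokine production, was at 8.50 and 8.91 at 18 h, against 4.79 and 5.60 at 0 h (3.51 ± 0.31). Nr4a2, of the orphan nuclear receptors induced by the T cell receptor, rose by 2.63 and Fosl1, an AP-1 subunit, by 2.10. Their other probe sets gave 0.6 and 0.2. Rel, an NF-κB subunit, rose by 2.06, Nr4a1 by 1.61 and Egr2 by 1.51. Myc, which drives growth and metabolism of activated cells, was at 10.14 and 10.63, against 8.90 and 9.45 (1.21 ± 0.20, adjusted p = 0.00321). Batf, another AP-1 factor, was the 1 member that fell (-1.07), and it was not called without KO 18 h replicate 2. Fos and Jun, the subunits that form AP-1, had widely separated 0 h replicates, Fos at 6.73 and 10.63 and Jun at 6.47 and 8.62, and did not pass the test.

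Genes downstream of cytokine receptors formed another group of increases. Of 15 STAT5 targets and feedback regulators 9 rose and 2 fell, with a median of 1.17 (7 and 2 without KO 18 h replicate 2). Socs2, a suppressor of cytokine signalling, was at 9.34 and 8.43 at 18 h, against 4.17 and 4.86 at 0 h (4.37 ± 0.51). Cish rose by 2.21, the kinases Pim2 and Pim1 by 1.58 and 1.16, and the survival factor Bcl2l1 by 1.51. The other probe sets of Bcl2l1 gave -0.25 to 0.15. Inhibitors of Ras and MAP kinase signalling moved in both directions: Spry1 rose by 3.24 ± 0.31 and Spry2 by 3.17 ± 0.22 (0.37 with its other probe set), whereas Spred2 fell by 0.92 and the phosphatase Dusp10 by 1.09. Socs3 was at 9.20 and 9.16, against 10.16 and 10.53, a difference of -1.17 that missed the threshold (adjusted p = 0.0523) and passed it with the replicate block.

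Regulators of G protein signalling were divided. Of 17 Rgs genes 2 rose and 3 fell (1 and 2 without KO 18 h replicate 2). Rgs16 was at 10.14 and 9.83 at 18 h, against 5.68 and 5.87 at 0 h (18.5-fold; 4.21 ± 0.22), and Rgs1 rose by 2.82 ± 0.69, a call lost without KO 18 h replicate 2. Rgs11 and Rgs14 each fell by 1.09, and Rgs10 by 0.75, the Rgs10 call being lost without that array.

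Of 24 p53 targets and apoptosis genes 8 rose and 1 fell, with a median of 0.46 (7 and 1 without KO 18 h replicate 2). Cdkn1a, which encodes the CDK inhibitor p21, was at 8.47 and 8.95 at 18 h, against 4.45 and 5.22 at 0 h (14.6-fold; 3.87 ± 0.26). Phlda3, an inhibitor of Akt, was at 7.75 and 8.50, against 5.97 and 6.05 (2.11 ± 0.23). Increases were also seen for Pmaip1, the BH3-only protein Noxa (2.05), Ccng1 (1.28), Gadd45b and Perp (1.21 each), Zmat3 (1.20) and Sesn2 (0.72). Gadd45g was at 7.59 and 6.87, against 8.07 and 8.42 (-1.01 ± 0.28), and this call was lost without KO 18 h replicate 2, as was that of Pmaip1. Casp8 (-0.69) was called lower only without that array. Cdkn2d, which encodes the CDK inhibitor p19, fell by 1.58 ± 0.28. Of 10 CDK inhibitors and Rb family genes these were the 1 that rose (Cdkn1a) and the 1 that fell.

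In the list of the integrated stress response and the ER (37 genes) 5 rose and 0 fell, with a median of 0.32 (3 and 0 without KO 18 h replicate 2). Asns, asparagine synthetase, was at 7.40 and 8.53 at 18 h, against 3.21 and 4.08 at 0 h (4.32 ± 0.82, adjusted p = 0.00624). Trib3, a pseudokinase induced when amino acids are short, was at 6.40 and 8.0, against 4.61 and 4.35 (2.72 ± 0.48). Atf3 rose by 1.6, Pdia5 by 0.98 and Sesn2 by 0.72. The calls of Asns and Atf3 were lost without that array. In Asns and Trib3 replicate 2 was the higher array at 18 h. Ddit3, the stress factor CHOP, was at 8.42 and 9.05, against 8.11 and 8.19, and did not pass the test (0.58).

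Genes of biosynthesis rose in part. In serine, folate and one-carbon metabolism 6 of 11 rose and 0 fell, with a median of 0.80 (3 and 0 without KO 18 h replicate 2). Odc1, the first enzyme of polyamine synthesis, was at 11.68 and 11.69 at 18 h, against 9.65 and 9.91 at 0 h (1.90 ± 0.22), and Psat1, of serine synthesis, was at 8.63 and 8.65, against 7.05 and 7.08 (1.57 ± 0.32). Of 52 ribosome biogenesis genes 8 rose and 0 fell, with a median of 0.38 (6 and 0 without KO 18 h replicate 2). Lyar led them (1.44 ± 0.16), followed by Nop16 (1.27) and Wdr12 (1.18, a call lost without that array). The other probe sets of Nop16 and Wdr12 gave 0.3 and 0.09. Fbl, Gnl3 and Nop56 also lost their calls without that array, and Nolc1 and Rcl1 were called only without it. Of 47 cytosolic ribosomal protein genes 2 rose, near the 3.67% of all genes called higher, and 0 fell. The 2 were Rps27l (1.42) and Rpl7l1 (0.96), paralogs outside the standard set of subunits. Rps27l lost its call without KO 18 h replicate 2. Eif4ebp1, which restrains translation initiation, was at 7.48 and 9.07, against 5.32 and 5.45 (2.89 ± 0.55), and its call was lost without replicate 2. Of 18 cytosolic tRNA synthetases 1 rose (Iars, 0.88), and 1 call is not read as a property of the list.

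In glycolysis 4 of 17 genes rose and 1 fell (1 and 2 without KO 18 h replicate 2). Hk2, the hexokinase of growing cells, was at 6.70 and 7.34 at 18 h, against 4.09 and 4.75 at 0 h (2.60 ± 0.36), whereas its paralog Hk1 fell by 0.70. Of 22 genes of sterol synthesis and export 5 rose and 2 fell (3 and 2 without KO 18 h replicate 2). Idi1 (1.91 ± 0.23), Cyp51 (1.86 ± 0.23), Sqle (1.74), Fdft1 (1.57) and Hmgcs1 (1.07), enzymes of cholesterol synthesis, rose. The calls of Fdft1 and Hmgcs1 were lost without that array. The other probe sets of Fdft1 gave -0.08 to 0.97. The exporters fell: Abca1 was at 6.24 and 6.43, against 9.51 and 9.72, and Abcg1 at 7.69 and 7.32, against 9.33 and 9.05 (-1.69 ± 0.25). The other 2 probe sets of Abca1 gave -0.40 and -0.24, against -3.28. Among 20 nutrient transporters 5 rose and 1 fell, with 1 and 0 without KO 18 h replicate 2. Slc19a1, the folate carrier, was the transporter named here that kept its call without that array (1.46 ± 0.20), and Slc7a5, of large neutral amino acids, was at 8.41 and 9.43, against 7.68 and 7.86 (1.15 ± 0.29).

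Of 30 cytosolic and related chaperones 10 rose and 2 fell (7 and 1 without KO 18 h replicate 2). Hspd1 and Hspe1, the mitochondrial chaperonin pair, rose by 1.24 and 0.98 (Hspe1 not without KO 18 h replicate 2), while Hspa1b, a heat-inducible Hsp70 gene, was at 5.12 and 5.61 at 18 h, against 7.80 and 7.36 at 0 h (-2.22 ± 0.33). Hsp90aa1 rose by 0.98 with its brightest probe set, but its direction was not shared by its other probe sets: the mean of all was -0.27 and the most variable one -0.81. In the proteasome 7 of 47 genes rose, fewer without KO 18 h replicate 2, and 2 fell. The activator subunit Psme3 rose (1.11 ± 0.16), with -0.23 to 0.41 from its other probe sets. The assembly factor Pomp fell by 0.80 ± 0.16.

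Mitochondrial genes are a known target class of GABP. Of 74 mitochondrial ribosomal protein genes 2 rose and 1 fell (1 and 0 without KO 18 h replicate 2), of 80 genes of the respiratory chain and ATP synthase 1 rose and 0 fell (0 and 0), and of 23 TCA cycle genes 1 rose and 0 fell (0 and 0). Of 55 genes of import, translation and quality control 4 rose and 1 fell (2 and 1). Among all genes 3.67% were called higher and 3.87% lower. The share called higher was below that of all genes in the first 2 lists and above it in the other 2. The share called lower was below that of all genes in each list. These KO counts are small and are not read as a property of the lists. In WT CD8 cells 27, 14, 5 and 19 members of the lists, in the same order, were called higher, against 8.2% of all genes. There 0, 2, 0 and 1 were called lower, against 7.0%. The difference of KO minus WT responses had medians of -0.38, -0.22, -0.22 and -0.28, against 0.052 for all genes, and was called for 0 members. The median differences of the first 2 lists were 0.29 and 0.24 and came to 0.08 and -0.01 without KO 18 h replicate 2. Mtx2, of protein import at the outer membrane, was at 5.46 and 6.35 at 18 h, against 3.49 and 3.79 at 0 h (2.27 ± 0.32, adjusted p = 0.000938). Mrps6 rose by 1.30 ± 0.19. Nubp1, which helps build iron-sulfur clusters, rose by 0.99 ± 0.28, a call lost without replicate 2. The study named Nubp1 under microtubule organization and vesicle transport, apart from its mitochondrial genes. Ndufaf1, an assembly factor of complex I, was at 5.18 and 5.67, against 4.21 and 5.43, with overlapping groups.

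Interferon-response genes made up the list with the most decreases. Of 32 measured members 15 fell and 0 rose, with a median of -1.10, against 0.015 for all genes (13 and 0 without KO 18 h replicate 2). Mx1, a GTPase that restricts viruses, was at 5.17 and 5.45 at 18 h, against 9.93 and 8.99 at 0 h (-4.15 ± 0.55). Irf7, the factor that amplifies interferon production, was at 6.27 and 5.95, against 9.83 and 9.01 (-3.31 ± 0.49). Ifit1, which binds viral RNA, was at 6.07 and 6.82, against 10.28 and 9.30 (-3.35 ± 0.62). Replicate 1 was the higher 0 h array in 14 of the 15, with a median gap of 0.82, while the median gap at 18 h was -0.01. Ifit3 and Rtp4 lost their calls without KO 18 h replicate 2. Of other members, Psmb10, of the immunoproteasome, fell by 0.99 and kept its call, and Gbp2, Irgm1 and Irf1 were not called. Gbp2 was at 11.80 and 12.18, against 10.28 and 10.50 (1.6, adjusted p = 0.0977; called with the replicate block), Irgm1 differed by 0.17 and Irf1 by -0.15. In WT CD8 cells, where 8.2% of all genes were called higher and 7.0% lower, 13 of the 32 fell and 1 rose, and 12 of the 15 fell there too. None of the 32 was called in the difference between KO and WT responses.

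Of the 15 members that fell, 11 had a RefSeq promoter, and 3 of these held the interferon-stimulated response element. This motif is GAAA, any 2 bases, then GAAACT, on either strand. Those 3 promoters (250 bases before to 50 bases after the start, GRCm38.p6) were chosen for their matches and are printed with them in capitals. They lie at chr19:34640639-34640938 on the plus strand (Ifit1), chr19:34583279-34583578 on the plus strand (Ifit3) and chr5:120907476-120907775 on the minus strand (Oas1a).
Ifit1: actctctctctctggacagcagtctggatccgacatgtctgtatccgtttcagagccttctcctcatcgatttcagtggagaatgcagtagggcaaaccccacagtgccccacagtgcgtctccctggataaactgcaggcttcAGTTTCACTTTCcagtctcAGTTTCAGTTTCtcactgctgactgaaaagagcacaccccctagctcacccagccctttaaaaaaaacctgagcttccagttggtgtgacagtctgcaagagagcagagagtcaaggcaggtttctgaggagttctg
Ifit3: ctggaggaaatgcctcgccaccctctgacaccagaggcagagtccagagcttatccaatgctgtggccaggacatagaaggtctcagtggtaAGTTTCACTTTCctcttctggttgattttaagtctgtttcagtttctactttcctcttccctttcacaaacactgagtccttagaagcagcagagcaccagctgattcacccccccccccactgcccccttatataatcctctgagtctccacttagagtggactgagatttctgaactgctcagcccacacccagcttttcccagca
Oas1a: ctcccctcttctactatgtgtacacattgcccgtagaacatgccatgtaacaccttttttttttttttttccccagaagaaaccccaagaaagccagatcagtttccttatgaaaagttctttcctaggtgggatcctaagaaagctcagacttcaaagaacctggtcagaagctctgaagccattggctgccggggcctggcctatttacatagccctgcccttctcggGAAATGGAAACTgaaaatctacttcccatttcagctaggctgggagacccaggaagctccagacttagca
Ifit1 holds 2 matches, which begin 106 and 87 bases before the start, Ifit3 has 1 that begins 158 bases before it and Oas1a 1 that begins 20 bases before it. Ifit3 was at 7.61 and 6.57 at 18 h, against 10.63 and 9.65 at 0 h, and Oas1a at 6.87 and 6.99, against 9.90 and 9.48. Of the 9887 genes tested with a promoter in the table, 33 (0.334%) held this motif, as did 9 of 383 called lower (2.35%) and 0 of 375 called higher. Within the interferon list the motif stood in 3 of 11 members that fell and in 4 of 13 that were not called. The Ets motif CCGGAAGT, which fits the binding preference of GABP, stood on either strand in 715 of all promoters (7.23%), in 41 of those called lower (10.7%) and in 16 of those called higher (4.27%). These and the E2F motif shown further on were among 6 motifs searched, and a match describes letters in this window, not a binding site.

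Of 22 genes of the naive T cell and of quiescence 5 fell and 0 rose, with a median of -0.79 (4 and 0, with a median of -0.22, without KO 18 h replicate 2). Ramp1 was at 7.74 and 7.99 at 18 h, against 9.49 and 9.97 at 0 h (-1.87 ± 0.25), Pdlim4 fell by 1.51, Foxo1, the factor of naive cell survival and homing, by 0.92 and Dgka, a brake on T cell receptor signalling, by 0.90. Txnip fell by 1.23, a call lost without replicate 2. Other members did not pass the test, some of them with a wide gap between the 18 h replicates. Klf2, which sets trafficking of naive cells, was at 11.20 and 11.24, against 11.36 and 11.50, and Il7r, the receptor for the survival cytokine IL-7, at 11.53 and 10.40, against 11.43 and 11.87. S1pr1, which lets T cells leave lymph nodes, was at 8.85 and 6.31, against 9.47 and 8.70, and Lef1 at 8.21 and 4.07, against 8.31 and 7.52. In WT CD8 cells 14 of the 22 fell, and none of the 22 was called in the difference between KO and WT responses.

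Of 20 genes of the T cell receptor complex and its proximal signalling 4 fell and 0 rose, but 1 alone without KO 18 h replicate 2. Cd3g fell by 0.60 ± 0.14, and it was called in both fits. Cd2 (-1.36), Lat (-0.89) and Vav1 (-0.88) were lower in replicate 2 than in replicate 1 at 18 h, with Cd2 at 10.01 and 9.35, against 11.09 and 10.99. Ctsw, a protease of cytotoxic lymphocytes, fell by 1.49 ± 0.19 and Itgae, an integrin of CD8 cells, by 1.89 ± 0.39, the Itgae call being lost without replicate 2. Cd8b1 was at 11.59 and 9.29, against 12.31 and 12.60, and was not called.

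**Figure D3:**
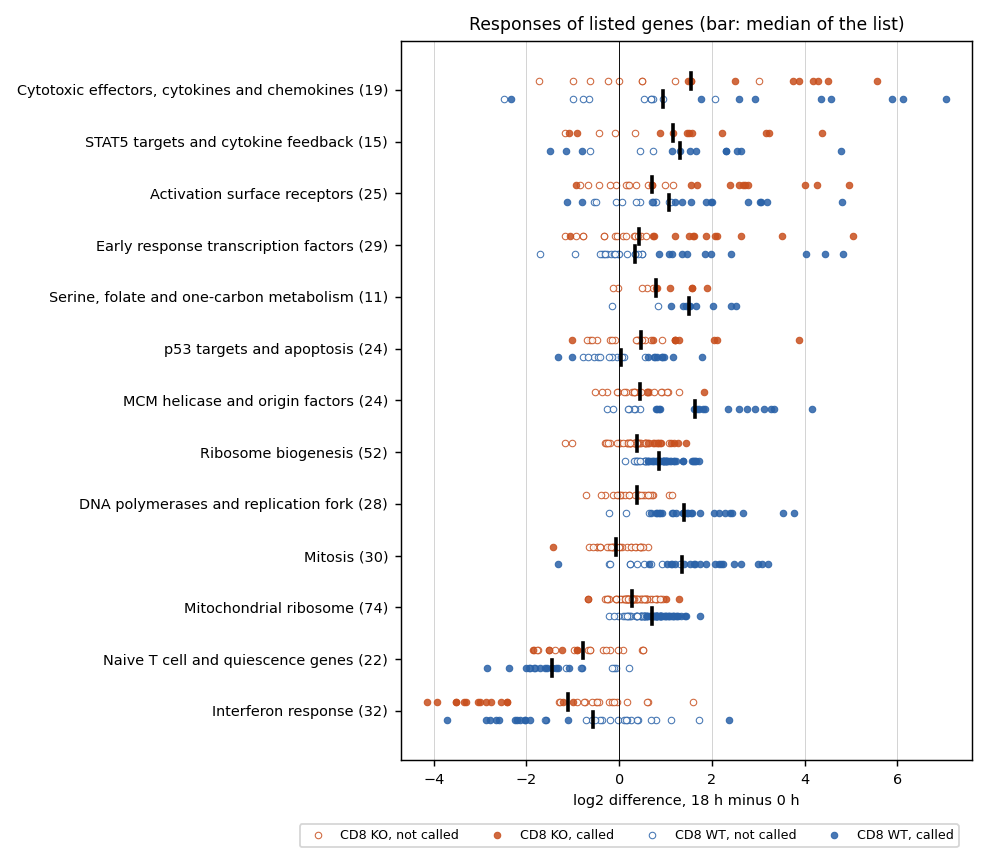
Log2 differences of 18 h minus 0 h for the members of 13 gene lists (number of measured genes in parentheses) in CD8 KO (orange, upper row of each list) and CD8 WT cells (blue, lower row); filled points were called and black bars mark medians. Cytokines, receptors and the interferon response overlap widely between the genotypes, whereas MCM, polymerase and mitosis genes lie lower in KO cells, with medians of 0.46, 0.39 and -0.07, and higher in WT cells, at 1.65, 1.40 and 1.36.

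Genes of DNA replication and division were called in KO cells at shares near those of all genes, and more were called in WT cells. More calls in WT cells were not particular to these genes. Of 52 ribosome biogenesis genes 33 rose in WT cells, against 8 in KO cells. Of 18 cytosolic tRNA synthetases 9 rose in WT cells, against 1, and of 47 proteasome genes 23, against 7. Of 24 MCM helicase and origin factors 2 rose, Mcm6 (0.63 ± 0.15, and 1.32 with its other probe set) and Orc1 (1.84 ± 0.39). The Orc1 call was lost without KO 18 h replicate 2. Of 28 genes of DNA polymerases and the replication fork 0 were called, and of 30 mitosis genes 0 rose and 1 fell (Kif23, -1.42 ± 0.22). Both 18 h arrays lay above both 0 h arrays in 17 of the 24, 14 of the 28 and 7 of the 30, against 19.7% of all genes. They lay below in 1, 2 and 5, against 19.2%. The medians of these lists, 0.46, 0.39 and -0.07, came to 0.28, 0.17 and -0.025 without KO 18 h replicate 2. Over these and the lists of G1 and S phase and of dNTP synthesis, 114 genes in all, 4 were called higher (3.51%, against 3.67% of all genes) and 3 lower (2.63%, against 3.87%), with a median of 0.30 (3 and 3 without KO 18 h replicate 2). In WT CD8 cells, where 1016 genes were called higher and 868 lower, 78 of the 114 were called higher and 3 lower, with a median of 1.31. The difference of the responses was below 0 for 102 of the 114, with a median of -1.04, and was called for 9, all lower in KO, against 0.226% of all genes called lower. At 0 h 24 of the 114 were called higher and 0 lower in KO than in WT cells, against 1.13% of all genes called higher and 0.5% called lower. At 18 h 10 were called lower and 2 higher, against 1.16% of all genes called lower and 1.59% called higher. These 2 contrasts use the same KO arrays as the response and are no independent evidence of it.

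The test of the difference itself, over all genes, asked where the KO response departed from the WT response. It called 5 genes higher (0.0403%) and 28 lower (0.226%) in the KO response, out of 1128 with an unadjusted p under 0.05 in limma. Of the 28, 27 rose in WT cells, and in KO cells 5 rose, 2 fell and 21 were not called. Their median response was 0.52 in KO and 2.48 in WT cells. Cdk1, the kinase that drives entry into mitosis, was at 6.96 and 6.99 at KO 18 h, against 7.09 and 6.84 at KO 0 h. In WT cells it was at 7.66 and 8.60 at 18 h, against 5.0 and 4.81 at 0 h (difference -3.21 ± 0.40, adjusted p = 0.00897). The KO arrays thus lay above the WT arrays before stimulation and below them after it. Trip13 (-3.13), Rad54l (-3.14), Cdc6 (-3.11), Cenph (-2.97), Uhrf1 (-2.91), Dtl (-2.68) and Chek1 (-2.66), of the spindle checkpoint, recombination, replication licensing, the kinetochore, DNA methylation upkeep and the replication checkpoint, were the next lowest. Of the 28, 15 were called higher in KO at 0 h and 15 called lower in KO at 18 h, with 2 in both.

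Not all of the 28 were cell cycle genes. Pomp, the proteasome assembly factor, was at 10.24 and 10.24 at KO 18 h, against 10.96 and 11.12 at KO 0 h. In WT cells Pomp was at 11.10 and 11.35 at 18 h, against 10.26 and 10.45 at 0 h (difference -1.67 ± 0.23, adjusted p = 0.0168). Kti12, of tRNA modification, fell by 1.22 in KO and differed by 0.51 in WT. Kars and Rars, the lysyl- and arginyl-tRNA synthetases, differed by -0.35 and -0.28 in KO and rose by 1.18 and 1.08 in WT. Sdf2l1, of the ER, had the call kept most often among the 28, in 15 of 16 fits with 1 array left out, and 0 of the 28 were kept in all 16. The count was 32 without KO 18 h replicate 2, 209 without KO 18 h replicate 1, 90 without WT 18 h replicate 1, and 1 without KO 0 h replicate 1, WT 18 h replicate 2 or WT 0 h replicate 2. It was 0 in a fit of the 8 CD8 arrays alone. Leaving out a CD4 array altered the SE of these differences and not their size, so those fits test the calls less.

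E2F factors control many replication genes, so the promoters of 2 MCM genes among the 28 are shown with the E2F motif TTTGGCGC, or its reverse complement GCGCCAAA, in capitals. They lie at chr8:75109259-75109558 on the plus strand (Mcm5) and chr1:128359656-128359955 on the minus strand (Mcm6).
Mcm5: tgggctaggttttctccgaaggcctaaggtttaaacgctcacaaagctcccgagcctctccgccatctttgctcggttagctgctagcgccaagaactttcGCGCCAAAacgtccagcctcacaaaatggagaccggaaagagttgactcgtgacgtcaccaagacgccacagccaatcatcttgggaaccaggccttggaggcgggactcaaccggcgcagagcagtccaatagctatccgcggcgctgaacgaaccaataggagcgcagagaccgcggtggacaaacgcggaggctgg
Mcm6: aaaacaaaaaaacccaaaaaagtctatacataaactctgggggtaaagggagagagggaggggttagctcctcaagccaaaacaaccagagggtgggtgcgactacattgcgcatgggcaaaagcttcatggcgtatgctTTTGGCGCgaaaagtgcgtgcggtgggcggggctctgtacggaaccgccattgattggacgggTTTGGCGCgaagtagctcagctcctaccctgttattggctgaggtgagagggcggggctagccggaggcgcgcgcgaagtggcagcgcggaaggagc
Mcm5 holds 1 match, 149 bases before the start, and Mcm6 holds 2, at 110 and 47 bases. Mcm5 was at 8.04 and 8.38 at KO 18 h, against 7.72 and 7.48 at KO 0 h, and Mcm6 at 10.97 and 10.84, against 10.28 and 10.25. The motif stood in 97 of the 9887 promoters (0.981%), in 9 of 375 called higher in the KO response (2.4%), in 4 of 383 called lower (1.04%) and in 4 of the 26 with a promoter among the 28 (Dtl, Mcm3, Mcm5 and Mcm6). The Ets motif stood in 5 of these 26 (Cenph, Eme1, Kti12, Pomp and Traip). These counts are of the exact 8 letters, and other Ets-like letters were not searched. The study reported GABPα bound at the Mcm3 and Mcm5 promoters, by ChIP-seq in WT CD4 cells and by ChIP-qPCR in WT CD4 and CD8 cells. It also located conserved GABP elements in both proximal promoters, which are not marked in the Mcm5 sequence shown. A promoter without these 8 letters is therefore not shown to lack a GABP site.

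The 5 genes with a higher response in KO cells were Rbp4, Rgs16, Trib2, Cdkn1a and Ahnak. Rbp4, a carrier of retinol in blood, was at 6.90 and 6.58 at KO 18 h, against 2.92 and 3.11 at KO 0 h, a 13.2-fold increase. In WT cells it was at 2.77 and 2.82 at 18 h, against 2.71 and 2.98 at 0 h (difference 3.77 ± 0.30, adjusted p = 0.000303). Rbp4 was the 1 gene of the 5 whose difference was called in all 16 fits with 1 array left out. Rgs16 rose in both genotypes, by 4.21 in KO and 1.59 in WT cells, and so did Cdkn1a, by 3.87 and 1.79. Trib2 rose by 1.33 in KO and fell by 0.93 in WT cells. Ahnak was at 7.31 and 7.66 at KO 18 h, against 7.73 and 7.72 at KO 0 h, and fell by 1.81 in WT cells. Without KO 18 h replicate 1 the count of higher responses was 62 and without WT 18 h replicate 1 it was 36, against 1 to 5 in the other 14 fits.

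**Figure D4:**
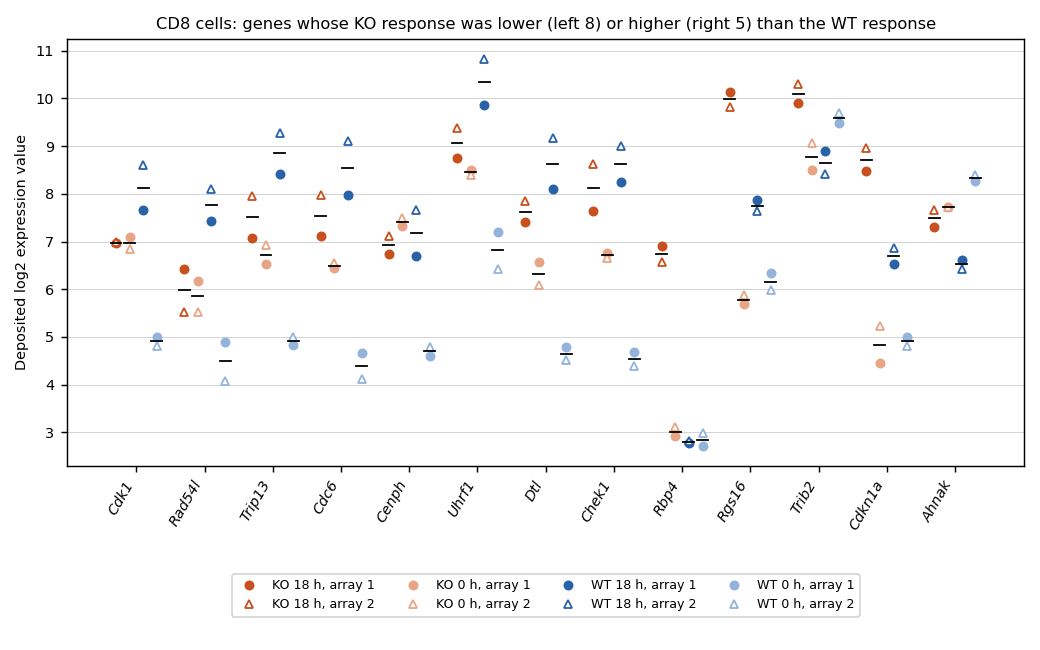
Deposited log2 expression values in the 8 CD8 arrays for the 8 genes of lowest and the 5 genes of higher response in KO against WT cells, in the order KO 18 h, KO 0 h, WT 18 h and WT 0 h; filled circles are replicate 1, open triangles replicate 2 and bars the mean of 2 arrays. For Cdk1 the KO arrays lie between 6.84 and 7.09 at both times while WT arrays lie at 7.66 and 8.60 at 18 h and at 5.0 and 4.81 at 0 h; Rbp4 is high in the KO 18 h arrays alone, at 6.90 and 6.58.

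Most calls of the KO response had the same direction in WT cells. Of the genes called higher in KO cells 438 of 455 had the same sign in WT cells and 325 were called there as well, which is 71.4% of the KO list and 32.0% of the WT list. Of those called lower 460 of 479 had the same sign and 310 were called, 64.7% and 35.7% of the lists. In opposite directions 1 gene was called higher in KO and lower in WT, and 1 lower in KO and higher in WT (Trib2 and Pomp). Over all genes the 2 responses, which share no arrays, were correlated at 0.721. Il2 rose by 4.51 in KO cells and differed by 2.06 in WT cells (adjusted p = 0.07), but the difference between the responses was not called (adjusted p = 0.489).

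**Figure D5:**
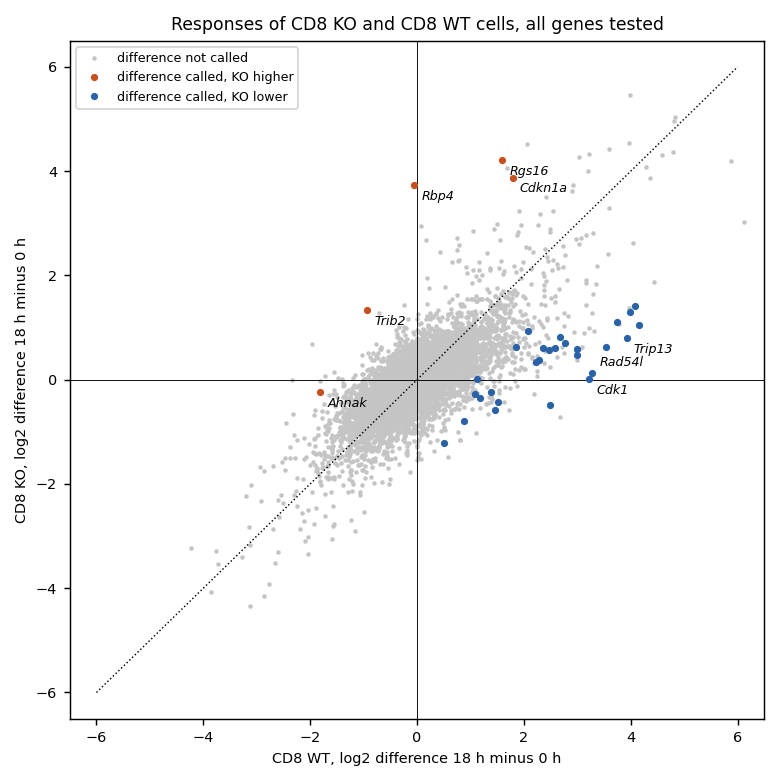
Log2 difference of 18 h minus 0 h in CD8 KO (vertical axis) against CD8 WT cells (horizontal axis), 1 point per gene tested; the dotted line marks equal responses, and coloured points are the 5 and 28 genes whose difference was called. The blue points lie below the line, mostly at positive WT differences, and Rbp4 lies at 3.73 in KO and -0.05 in WT cells.

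CD8 and CD4 KO cells were compared to see where the KO response differed between the lineages. In CD4 KO cells 1371 genes were called higher (11.1%) and 1633 lower (13.2%). The difference of CD8 minus CD4 was called higher for 345 genes (2.78%) and lower for 180 (1.45%). With each array centred on its median the split was 273 and 304. Of the 345, 327 were called lower in CD4 cells and 20 called higher in CD8 cells, and of the 180, 164 were called higher in CD4 cells and 13 called lower in CD8 cells. Lgals3 was the highest, with 5.46 in CD8 cells, where it rose, and 1.07 in CD4 cells (difference 4.39 ± 0.68, adjusted p = 0.00631). Vim, an intermediate filament, was at 10.41 and 10.96 at CD8 18 h, against 11.15 and 11.09 at CD8 0 h, and fell by 4.36 in CD4 cells. Il7r fell by 4.30 and Socs3 by 4.58 in CD4 cells, and they differed by -0.68 and -1.17 in CD8 cells, without a call. Of the 22 naive-state genes 7 had a higher and 0 a lower difference, and of the 52 ribosome biogenesis genes 0 had a higher and 15 a lower one, 46 having risen in CD4 cells.

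The 5 genes called in opposite directions in the lineages were chosen for this after their values were seen, so that their differences are a description. The CD8 calls of Gucy1b1, Mxi1 and Tnfrsf25 were lost without CD8 KO 18 h replicate 2. Mcoln2, a lysosomal channel, was at 5.75 and 5.39 at CD8 18 h, against 7.03 and 7.36 at CD8 0 h, and rose by 3.01 in CD4 cells (difference -4.64 ± 0.39). Gucy1b1, a subunit of the nitric oxide receptor, rose by 1.6 in CD8 cells (0.27 with its other probe set) and fell by 1.47 in CD4 cells. Tnfrsf25 rose by 1.43 and fell by 1.27. Trib2 rose by 1.33 and fell by 1.04, and Mxi1, a repressor of Myc targets, rose by 0.67 and fell by 0.74. Zeb2, a factor of terminal effectors, was at 4.87 and 3.58 at CD8 18 h, against 3.16 and 2.95 at CD8 0 h (1.17 ± 0.32), and rose by 4.45 in CD4 cells. Cst7, an inhibitor of proteases of cytotoxic granules, was at 9.05 and 9.54 at CD8 18 h, against 9.57 and 9.87 at CD8 0 h, and rose by 3.03 in CD4 cells. Axl, Stc1 and Pdgfb differed by 0.52, 1.02 and 0.40 in CD8 cells, without a call, and rose by 4.27, 4.56 and 3.65 in CD4 cells. Of the called differences 89 and 41 were kept in all 16 fits with 1 array left out. The counts were 96 and 46 without CD4 KO 18 h replicate 2, 133 and 72 without CD4 KO 0 h replicate 1, 147 and 71 without CD4 KO 0 h replicate 2, 124 and 83 without the first CD8 KO 0 h array, 221 and 81 without the second, and 696 and 485 with CD8 KO 18 h replicate 1 left out.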

How the data were processed

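Gene expression was measured on 16 Affymetrix mouse arrays, in 8 groups of 2 replicates taken from the labels, after 2 rounds of RNA amplification. The authors made the deposited log2 values with the R package affy, whose version and summary method are not given in the sources used here, and no further normalization was applied. Such normalization cannot show a shift of total RNA per cell. Of 22690 probe sets 20393 named 1 gene, and arrays give no depth, so their number limits the precision. Group differences came from limma 3.58.1 (R 4.3.3; 8 group means over 16 arrays, 8 residual degrees of freedom plus 4.32 from the prior), with two-sided tests adjusted by Benjamini-Hochberg over 12393 genes. This procedure was also tested on simulated data. The simulated arrays all had the same spread, so an array of lower RNA quality was not simulated. Nothing says that replicates came from separate mice or cultures beyond the word biological, so p-values measure the spread between these samples.

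The members and lists were chosen with earlier results of these data known. The 342 genes named by rule were the GABP subunits, the 12 highest and 12 lowest called genes, for each list at most 6 members that were called and 3 that were not, genes the study's text names, cell type markers and the extremes of both response differences; others were chosen after their values were seen. Of the genes tested 9887 had a promoter in the table from RefSeq (GRCm38.p6). Alternatives covered the test, fold, arrays in the fit, normalization, probe set, filter, array weights, RNA quality, replicate blocks and each array left out, where a lone array was assumed to vary like the other groups.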

Additional observations from a re-analysis of the deposited data

Results flagged for a closer look

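Genes were flagged here because the response of CD8 KO cells differed from that of another group by the limma test of the difference itself (adjusted p under 0.05), and they are given as values with no explanation. Against CD8 WT cells the response of KO cells was higher for Rbp4 (3.77), Rgs16 (2.62), Trib2 (2.26), Cdkn1a (2.08) and Ahnak (1.57). It was lower for Cdk1 (-3.21), Rad54l (-3.14), Trip13 (-3.13), Cdc6 (-3.11), Cenph (-2.97), Uhrf1 (-2.91), Dtl (-2.68) and Chek1 (-2.66). Against CD4 KO cells the response of CD8 KO cells was higher for Lgals3 (4.39), Vim (3.93), Il7r (3.62), Drc1 (3.55), Socs3 (3.42) and Gucy1b1 (3.07). It was lower for Mcoln2 (-4.64), Axl (-3.76), Stc1 (-3.54), Cst7 (-3.45), Zeb2 (-3.28) and Pdgfb (-3.25). Drc1, of the dynein regulatory complex of cilia, was at 7.58 and 8.25 at CD8 KO 18 h, against 7.05 and 7.41 at CD8 KO 0 h, and fell by 2.86 in CD4 KO cells. The other Gucy1b1 probe set gave 0.27 in the CD8 KO response, against 1.6 with the one used. Groups of 2 arrays were too small for a check of outlying arrays within a group.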

How the results depend on the processing

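The counts of called genes moved with most choices, and the cause was not tested. Array weights were equal within each pair of replicates, at 0.35 for both KO 18 h arrays. That setting therefore could not single out the array of lower RNA quality. In the order higher and lower, the KO response (455 and 479) gave 95 and 70 when tested against 1.5-fold, 268 and 257 over 2-fold, 237 and 243 from CD8 arrays only, 78 and 63 from the 4 KO arrays, 169 and 153 with array weights, 195 and 190 without the 3 arrays of largest 3' minus 5' difference, and 162 to 1257 and 220 to 966 with 1 array left out. The difference KO minus WT (5 and 28) gave 2 and 1 against 1.5-fold, 1 and 0 from CD8 arrays only, 1 and 18 with the mean of all probe sets, 1 and 5 with the most variable one, 3 and 5 with weights, 9 and 81 with the 3' minus 5' difference as a covariate, 3 and 4 without the 3 arrays, and 1 to 62 and 1 to 209 with 1 array left out. The difference CD8 minus CD4 (345 and 180) gave 27 and 11 against 1.5-fold, 175 and 100 with weights, 223 and 109 without the 3 arrays and 96 to 696 and 46 to 485 with 1 array left out. It gave 224 higher with the most variable probe set, and 304 and 312 lower with centred arrays and with the covariate.

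Sorts were halved between the times, but the labels do not say that a replicate number marks a sort, and there are 2 numbers, so whether the numbers pair the samples was not settled. Replicate deviations were correlated at 0.182 to 0.559 between CD8 groups (0.559 for KO 18 h with KO 0 h), at 0.264 to 0.45 between CD4 groups and at -0.602 to -0.122 between CD8 and CD4 groups. With the replicate block within lineage the counts were 791 and 744, 8 and 53, and 639 and 352 in the same order; within lineage and genotype they were 806 and 760, 7 and 29, and 635 and 338. Gzmb, Socs3 and Gbp2 passed the threshold in the KO response under both blocks. All 157 called genes among those named by rule kept their call under both blocks. Of 75 called genes with more than 1 probe set, 46 had one with a difference over 1.5 times smaller or of opposite sign. Hsp90aa1 reversed to -0.27 with the mean of all probe sets and to -0.81 with the most variable one, and Nop56 to -0.33 with the most variable one. Of the 157, 152 kept their call with centred arrays, 98 without KO 18 h replicate 2, 77 without the 3 arrays, and 75 in all 16 fits with 1 array left out.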

Other observations

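Genes outside the lists also changed strongly, and those given here were chosen after their values were seen. Enzymes and a transporter of amino acids were among the increases of the KO response. Cth, which makes cysteine from cystathionine, was at 5.84 and 7.02 at 18 h, against 2.40 and 2.34 at 0 h (4.05 ± 0.68, adjusted p = 0.00304 in limma). Bcat1, of branched-chain amino acid breakdown, rose by 4.08, Slc7a3, a transporter of cationic amino acids, by 2.85 and Gpt2, of alanine metabolism, by 2.83. The 18 h replicate of lower RNA quality was the higher one for Cth, and the calls of Slc7a3 and Gpt2 were lost without it. Mir155hg, the host transcript of a microRNA of activated lymphocytes, rose by 3.61, and Slamf1 and Alcam, surface molecules of cell contact, by 2.97 and 3.30. Mmp13, a collagenase, rose by 2.94 in KO cells and differed by 0.08 in WT cells, and the difference between the responses was not called (adjusted p = 0.0915).

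Further interferon-induced genes were among the decreases, with Epsti1 at -2.86, Ddx60 at -2.82, Oas3 at -2.76, Dhx58 at -2.72 and Ifitm3 at -2.54, each called with and without KO 18 h replicate 2. Cxcr6, a chemokine receptor of tissue-homing T cells, fell by 3.10, a call lost without that array, and Cdh1, which encodes E-cadherin, fell by 2.91.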
